A study of Homo sapiens with 6 samples.

Results

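Homologous recombination and Fanconi genes were followed across 6 bead arrays as 35 listed members, a list of names drawn up with earlier results of these data known: repair proteins of double-strand breaks and DNA crosslinks, their checkpoint kinases and the meiotic factor MEIOB. Probes were taken to belong to a member when the platform annotation gave its current or older symbol, which found 55 of 47316 probes, for 31 members. BRCA2, FANCA, FANCD2 and RBBP8 had no annotated probe and were not analysed here. The arrays held RNA of UWB1.289, an established ovarian carcinoma cell line without functional BRCA1, collected 48 hours after transfection in multiwell plates. The siHBO1 group (3 arrays) received small interfering RNA against HBO1, the histone acetyltransferase encoded by KAT7, and the siCTRL group (3 arrays) received scramble RNA. Both groups share the BRCA1 defect, so no BRCA1-proficient cells enter any comparison, and 1 line stands for all. Nothing in the labels tells whether each replicate was its own culture, so p-values cover only how far these 6 samples spread, and that spread may be technical.

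Homologous recombination repairs a broken chromosome by copying the sister chromatid. The MRE11-RAD50-NBN complex and EXO1 trim the broken ends, BRCA1 and PALB2 bring BRCA2 to them, and BRCA2 with the BCDX2 and CX3 complexes prepares the trimmed strand to invade the intact duplex. The Fanconi proteins open crosslinked DNA at stalled forks and hand it to the same machinery. Loss of BRCA1 impairs this route, which is the basis for treating such ovarian tumours with PARP inhibitors and platinum.

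The letters before 4 genes are shown, those with the smallest unadjusted p among members with a usable window in the promoter table. Such a window lies outside the whole annotated gene, a rule that passed over MRE11. XRCC3, FANCE and FANCB had negative log2 fold changes and ATM a positive one. The sequences come from the RefSeq promoter table of GRCh38.p14, which matched 31 of 35 members, without MEIOB, and each covers the 250 bases before the annotated start, 5′ to 3′ on the gene's strand. They lie at chr14:103715452-103715701 (minus strand), chr6:35452088-35452337 (plus strand), chrX:14873070-14873319 (minus strand) and chr11:108222817-108223066 (plus strand). Capitals mark a CCAAT box (CCAAT, or ATTGG on the other strand) or the cell cycle homology element (TTTGAA).
XRCC3: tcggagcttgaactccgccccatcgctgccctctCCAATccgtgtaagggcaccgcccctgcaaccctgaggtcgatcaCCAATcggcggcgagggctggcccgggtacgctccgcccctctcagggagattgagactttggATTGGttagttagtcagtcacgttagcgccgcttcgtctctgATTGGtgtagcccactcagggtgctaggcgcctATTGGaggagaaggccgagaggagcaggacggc
FANCE: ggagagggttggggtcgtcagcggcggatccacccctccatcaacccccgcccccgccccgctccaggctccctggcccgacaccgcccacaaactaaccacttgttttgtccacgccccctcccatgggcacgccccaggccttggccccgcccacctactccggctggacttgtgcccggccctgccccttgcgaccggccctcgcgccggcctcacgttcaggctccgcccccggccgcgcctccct
FANCB: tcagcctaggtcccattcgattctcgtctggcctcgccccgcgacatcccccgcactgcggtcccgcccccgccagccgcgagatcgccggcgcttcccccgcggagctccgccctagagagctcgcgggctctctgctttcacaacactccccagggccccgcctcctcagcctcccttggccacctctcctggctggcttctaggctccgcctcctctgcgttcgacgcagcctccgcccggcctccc
ATM: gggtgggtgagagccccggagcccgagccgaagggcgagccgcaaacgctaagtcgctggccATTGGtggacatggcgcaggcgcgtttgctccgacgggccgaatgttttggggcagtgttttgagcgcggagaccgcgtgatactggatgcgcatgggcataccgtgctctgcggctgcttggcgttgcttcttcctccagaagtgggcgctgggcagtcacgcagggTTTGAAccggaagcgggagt

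XRCC3 carried 5 CCAAT boxes in its window, at 216, 171, 108, 66 and 33 bases before the start, a number singled out after it was seen. At least 5 were found in 0.363% of 27305 promoters of the table. ATM carried 1 CCAAT box and 1 TTTGAA, and FANCE and FANCB carried none of the letters searched. Over the 31 member promoters, 13 (41.9%) held CCAAT on either strand, against 33.0% of all promoters, and 3 (9.68%) held TTTGAA, against 13.6%. E2F-type letters (TTTCCCGC, TTTCGCGC, TTTGCCGC or TTTGGCGC on either strand, none of which contains CCAAT or TTTGAA) were in 2 member promoters, those of FANCA and FANCC, which is 6.45% against 2.79% of all. A match describes letters only, and the window leaves out everything after the start.

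The siRNA target was lower. KAT7, read by a single probe that was detected on 2 of 3 siHBO1 and 3 of 3 siCTRL arrays, had normalised log2 intensities of 5.59, 6.29 and 5.98 in siHBO1 cells, against 7.98, 7.93 and 7.56 in siCTRL cells (log2 fold change -1.87, SE 0.20, adjusted p = 0.0187 in limma). The KAT7 value was -0.74 with uncorrected background, and the call ended without siHBO1 replicate 1, siHBO1 replicate 2, siCTRL replicate 2 or siCTRL replicate 3 (adjusted p = 0.0596, 0.0618, 0.0965 and 0.0862). Between 20546 and 21507 probes were detected per array. Of 11 ovarian and epithelial markers, 10 were detected on all 6 arrays, PAX8, MUC16 and EPCAM among them, and WT1 on 1 of 3 siHBO1 and 3 of 3 siCTRL arrays. PTPRC and CD3E of leukocytes, KDR of endothelium and COL3A1 and PDGFRB of fibroblasts were detected on 0 arrays, while CD14, CD68, CDH5, PECAM1 and COL1A2 were detected on all 6. CD14 averaged 8.12 ± 0.30 in siHBO1 cells and 7.33 ± 0.36 in siCTRL cells, and PECAM1 averaged 6.997 ± 0.37 in siHBO1 cells and 6.32 ± 0.14 in siCTRL cells (SD, n = 3 each). Neither was called (adjusted p = 0.0989 and 0.102 in limma), and a second CD14 probe was detected on 0 arrays. Of the 11 ovarian and epithelial markers, MUC16 and CDH1 were called higher (log2 fold change 1.33 and 0.76, adjusted p = 0.0243 and 0.0400). None was called lower, where 1.91% of all tested named genes rose and 1.28% fell. The part of all these markers in the results was not tested. In bulk RNA, fewer cells of a type and less RNA per cell cannot be told apart.

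MEIOB was the only tested member that passed the threshold. That gene had already been set apart in an account of the whole series. It encodes a single-strand DNA binding protein that, in mice, partners SPATA22 and is needed to complete meiotic recombination. Its raw bead signals were 324.1, 329.6 and 333.9 in siHBO1 cells, against 534.2, 660.3 and 550.7 in siCTRL cells. After background correction and normalisation the log2 intensities were 7.16, 7.41 and 7.09 in siHBO1 cells, against 8.31, 8.75 and 8.60 in siCTRL cells. All 3 siHBO1 arrays lay more than a full log2 unit below their siCTRL mean, and the groups did not overlap. MEIOB fell to 39.7% of the siCTRL level (log2 fold change -1.33, 95% confidence interval -1.68 to -0.99, adjusted p = 0.0187 in limma). Ranked by size, it was number 6 among the falls of 12227 tested named genes, with 1 probe (the brightest) per gene. An exact permutation test of the 6 arrays, two-sided, gave 0.1, the lowest p this design can reach. With uncorrected background the MEIOB value was -0.74, still called. The call ended on leaving out siHBO1 replicate 1 (adjusted p = 0.0658), siHBO1 replicate 2 (0.0618), siCTRL replicate 2 (0.0965) or siCTRL replicate 3 (0.0862), with log2 fold changes from -1.46 to -1.23 over the 6 arrays left out in turn.

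MEIOB rests on 1 probe, and the gene overlaps FAHD1, a mitochondrial hydrolase gene, in the RefSeq table. The loci LOC124907782 and LOC102723890 overlap MEIOB too, but had no annotated probe and could not be read. The 4 FAHD1 probes were therefore read as well, of which 2 were detected on 0 arrays and not tested. Of the tested ones, the brighter gave 12.10, 12.07 and 12.24 in siHBO1 cells, against 12.11, 11.80 and 11.77 in siCTRL cells (log2 fold change 0.24, adjusted p = 0.306), and the other was at -0.13 (adjusted p = 0.558). The nearest other measured gene, HAGH, had log2 fold changes of -0.0041 and 0.27 on its probes (adjusted p = 0.992 and 0.19). MEIOB's partner SPATA22 was on the arrays but was not detected on enough of them to be tested. In a list of 32 other meiotic recombination genes, 16 were tested, 0 rose and 0 fell, where 1.91% of all tested named genes rose and 1.28% fell. Before adjustment, 4 were higher and 2 lower (p under 0.05), against 12.9% and 10.9% of all genes, and the median log2 fold change was -0.05.

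**Figure D1:**
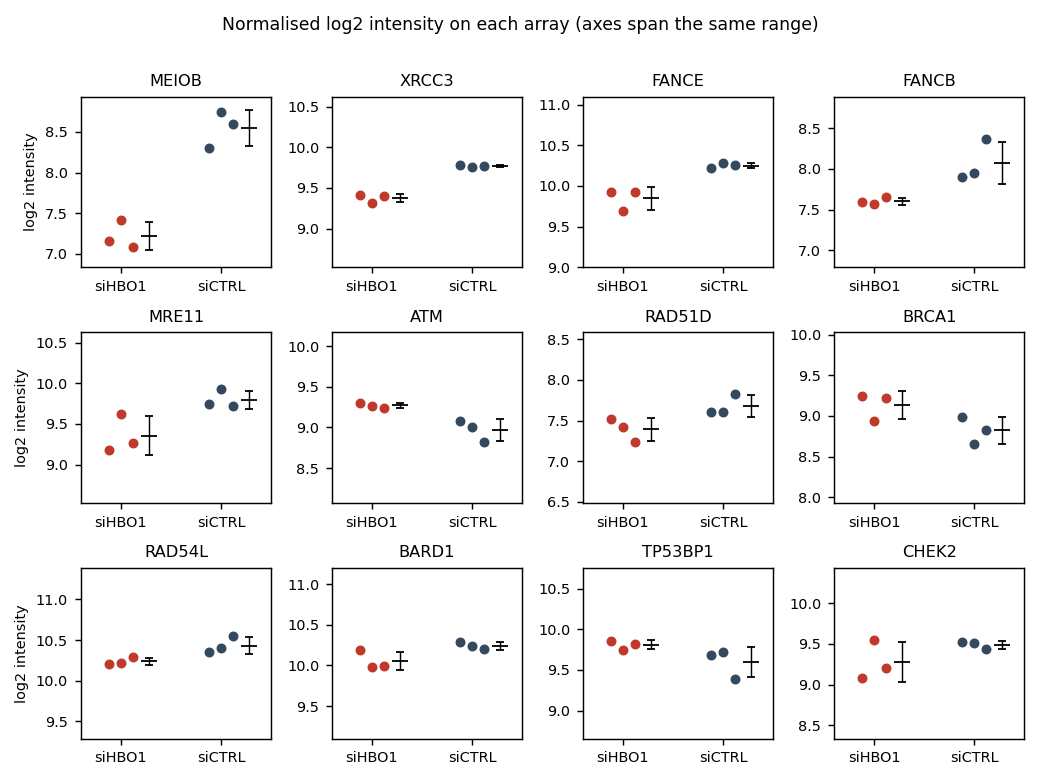
Normalised log2 intensity (y axis) of the 12 members with the smallest unadjusted p, by siHBO1 and siCTRL group, with 1 point per array (replicates 1 to 3 from left to right) and the mean with its SD (n = 3) beside them. Each panel spans the same number of log2 units. MEIOB has a log2 fold change of -1.33, and the next in size are FANCB (-0.47) and MRE11 (-0.45).

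Of the 35 members, 27 had a tested probe, that is, one detected on at least 3 of 6 arrays. Taking the brightest tested probe of each, 1 fell (MEIOB) and 0 rose at an adjusted p under 0.05, where 1.28% of all tested named genes fell and 1.91% rose. Because MEIOB had been set apart before, its call is not independent of the choice of members. Of the other 26 members, 0 were called. At an unadjusted p under 0.05, 6 members were lower and 2 higher, against 10.9% of all genes lower and 12.9% higher. The groups did not overlap for 9 members with lower and 3 with higher siHBO1 values, against 14.2% and 16.7% of all genes. By sign, 20 of 27 members had a negative and 7 a positive log2 fold change, and the same 20 to 7 split was counted with median scaling, without background correction and with the authors' processed values. The median over the members was -0.13, beside 0.01 over all tested named genes, of which 48.2% were negative. The members' median was -0.20 with median scaling (all genes: -0.05), -0.08 without siHBO1 replicate 1 and -0.19 without siCTRL replicate 1. Their mean log2 intensity was 9.35, 9.38 and 9.38 in siHBO1 cells, against 9.48, 9.55 and 9.52 in siCTRL cells. Without MEIOB the members' mean was 9.44, 9.45 and 9.47 in siHBO1 cells, against 9.53, 9.58 and 9.56 in siCTRL cells. The mean of all tested genes was 9.42 on each siHBO1 array and 9.40 on each siCTRL array.

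**Figure D2:**
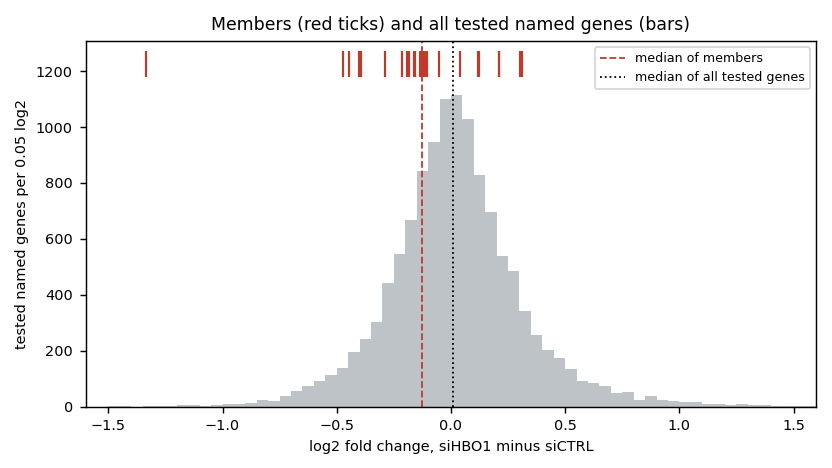
Number of tested named genes (y axis, bars) by log2 fold change, siHBO1 minus siCTRL (x axis, bins of 0.05), with each tested member as a red tick above. The dashed line is the members' median of -0.13 and the dotted line the median of all tested genes, 0.01; MEIOB lies alone at -1.33, and the other 26 members lie between -0.47 and 0.31.

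The intervals of the 26 uncalled members, by their brightest probe, limit the change that could have gone uncalled on that probe. These 95% confidence intervals reached 0.20 to 0.51 to either side of the value on the log2 scale, with a median of 0.27. For 19 of 26, the interval lay within a 1.5-fold change in either direction. XRCC2 and RAD51B are among the 19, yet the intervals of their dim second probes reached -1.16 and -0.98. The unadjusted interval lay below 0 for 5 uncalled members (XRCC3, RAD51D, FANCE, FANCB and MRE11) and above 0 for 2 (ATM and BRCA1).

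**Figure D3:**
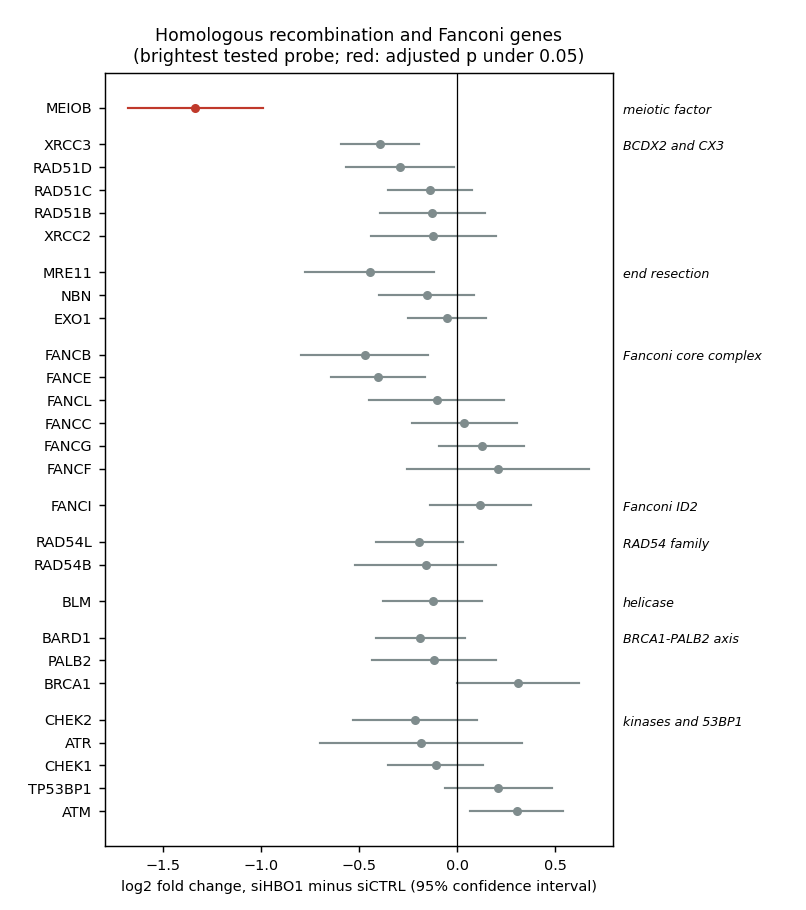
Log2 fold change, siHBO1 minus siCTRL (x axis), of the 27 tested members by role, as points with 95% confidence intervals from limma; red marks an adjusted p under 0.05. MEIOB is the only red point, all 5 genes of the BCDX2 and CX3 complexes and all 3 resection genes lie left of 0, and ATM, BRCA1, TP53BP1, FANCF, FANCG, FANCI and FANCC lie right of it.

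The BRCA1-PALB2 axis, which brings BRCA2 to the trimmed ends, showed no called change in its 3 tested members, BRCA1, BARD1 and PALB2. BRCA2 itself had no annotated probe. BRCA1, the tumour suppressor this line lacks in functional form, was still measured as mRNA: both of its probes were detected on all 6 arrays, which says nothing of the protein. The brighter BRCA1 probe read 9.25, 8.94 and 9.22 in siHBO1 cells, against 8.99, 8.65 and 8.83 in siCTRL cells. The groups overlapped, because siHBO1 replicate 2 lay below siCTRL replicate 1 (log2 fold change 0.31, SE 0.13, adjusted p = 0.233). The second BRCA1 probe was at 0.14 (SE 0.13, adjusted p = 0.589). BARD1, the ring-finger partner that forms a ubiquitin ligase with BRCA1, read 10.19, 9.98 and 9.995 in siHBO1 cells, against 10.29, 10.24 and 10.20 in siCTRL cells. Each siHBO1 value of BARD1 was below each siCTRL value, by a narrow margin for replicate 1 (log2 fold change -0.19, SE 0.10, adjusted p = 0.32). PALB2, the bridge between BRCA1 and BRCA2, was at -0.12 (95% confidence interval -0.43 to 0.20). RAD52, an annealing protein that sustains cells without BRCA function, was detected on 0 of 3 siHBO1 and 1 of 3 siCTRL arrays and was not tested.

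The genes of the BCDX2 and CX3 complexes, which act on the trimmed strand before it invades, all had negative log2 fold changes, with 0 of 5 called. XRCC3, which pairs with RAD51C in the CX3 complex, read 9.42, 9.32 and 9.40 in siHBO1 cells, against 9.79, 9.76 and 9.77 in siCTRL cells. The SD was 0.05 among the siHBO1 arrays and 0.02 among the siCTRL arrays, and the groups did not overlap. The log2 fold change of -0.39 (SE 0.08) did not pass (adjusted p = 0.058 in limma). XRCC3 passed under 7 of 16 alternatives, the looser 0.10 threshold included, with adjusted p from 0.0147 to 0.179. Those 7 alternatives called 5.58% to 11.0% of all tested named genes, against 3.19% in the main fit. RAD51D, of the BCDX2 complex, read 7.52, 7.42 and 7.23 in siHBO1 cells, against 7.61, 7.60 and 7.83 in siCTRL cells. The groups did not overlap, but the gap was smaller than the spread within either (log2 fold change -0.29, SE 0.12, adjusted p = 0.212). RAD51C, shared by both complexes, was at -0.14 by its brightest probe, RAD51B at -0.13 and XRCC2 at -0.12, and the XRCC2 value changed sign, to 0.01, without siHBO1 replicate 3.

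Several of these genes carry more than 1 tested probe. The permutation test of the difference between probes cannot go below 0.1 with 6 arrays, so it could not call any difference. A dim XRCC2 probe read 5.73, 5.93 and 6.08 in siHBO1 cells, against 6.99, 6.57 and 6.18 in siCTRL cells (log2 fold change -0.67, SE 0.21, adjusted p = 0.13). A dim RAD51B probe read 5.84, 6.21 and 5.68 in siHBO1 cells, against 6.66, 6.54 and 6.28 in siCTRL cells (log2 fold change -0.58, SE 0.17, adjusted p = 0.108). Both probes were detected on 2 of 3 siHBO1 arrays and 3 of 3 siCTRL arrays, so their values lie close to background. Within arrays, the change on the dim probe minus that on the bright one was -0.55 for XRCC2 and -0.46 for RAD51B (exact permutation p = 0.2 for both; adjusted p = 0.6 over the 12 pairs compared). EXO1 was the single gene whose probes differed by the smallest permutation p possible, 0.1, with a difference of -0.28 (adjusted p = 0.6). Its second probe was at -0.33 (SE 0.10, adjusted p = 0.128) and its brightest at -0.05. All 12 further probes, in 11 genes, had the sign of the brightest. Of the 39 tested member probes, 1 was called lower and 0 higher, against 1.26% and 1.47% of all tested probes. At an unadjusted p under 0.05, 10 member probes were lower and 2 higher (10.9% and 10.5% of all probes), and 14 lay wholly below and 3 wholly above the siCTRL values (13.8% and 13.3% of all probes).

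**Figure D4:**
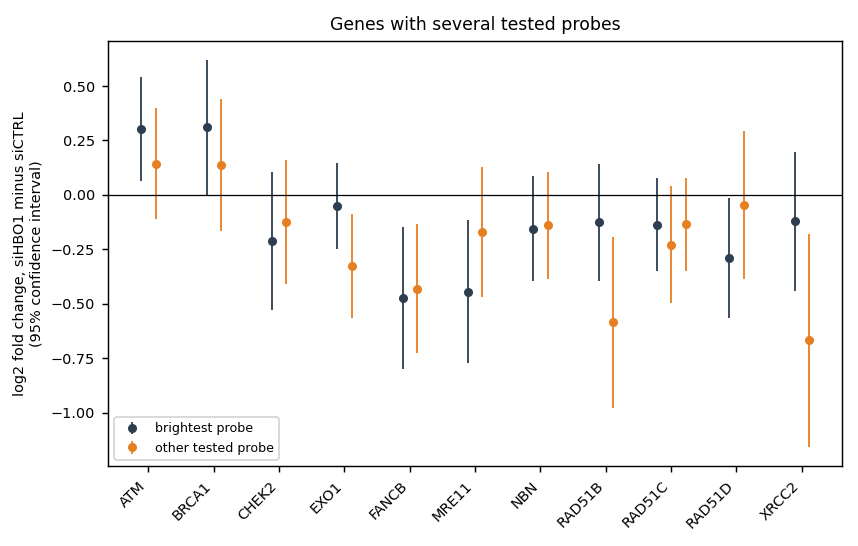
Log2 fold change, siHBO1 minus siCTRL (y axis), with 95% confidence intervals, for every tested probe of the 11 members that have more than 1. The brightest probe of a gene is dark and the others are orange: the signs match in every gene, and the probes of XRCC2 (-0.12 and -0.67) and RAD51B (-0.13 and -0.58) are farthest apart.

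Among the genes that trim broken ends, MRE11, the nuclease of the MRE11-RAD50-NBN complex, had the most negative value. It read 9.18, 9.63 and 9.26 in siHBO1 cells, against 9.75, 9.93 and 9.73 in siCTRL cells. The siHBO1 arrays all lay below the siCTRL arrays, with replicate 2 nearest to them (log2 fold change -0.45, SE 0.14, adjusted p = 0.133). MRE11 passed without background correction and with a trended, robust prior (adjusted p = 0.0448 and 0.0456). These alternatives called 10.7% and 11.0% of all tested named genes, against 3.19% in the main fit. The second MRE11 probe was at -0.17 (adjusted p = 0.493). NBN, the complex's regulatory subunit, was at -0.16 on one probe and -0.14 on the other. RAD50, its coiled-coil ATPase, was undetected on all 6 arrays by its single probe. RAD54L, the motor protein that drives strand exchange, read 10.21, 10.22 and 10.29 in siHBO1 cells, against 10.35, 10.40 and 10.54 in siCTRL cells. The RAD54L groups did not overlap (log2 fold change -0.19, SE 0.09, adjusted p = 0.296). Its relative RAD54B was at -0.16 and the dissolving helicase BLM at -0.12, and the helicase BRIP1 was undetected on all arrays.

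In the Fanconi core complex, the ubiquitin ligase that marks FANCD2 and FANCI at crosslinks, the members split by sign. FANCE, the subunit that binds FANCD2, read 9.92, 9.69 and 9.93 in siHBO1 cells, against 10.22, 10.28 and 10.25 in siCTRL cells. Its siCTRL arrays were tight and siHBO1 replicate 2 was the lowest (log2 fold change -0.40, SE 0.10, adjusted p = 0.0823). FANCE passed under 4 of 16 alternatives, among them the 0.10 threshold and no background correction (adjusted p = 0.0196). Those 4 alternatives called 8.09% to 11.0% of all tested named genes, against 3.19% in the main fit. FANCB, which holds the catalytic module together, had 2 probes of nearly equal change. The brighter read 7.59, 7.57 and 7.65 in siHBO1 cells, against 7.90, 7.95 and 8.37 in siCTRL cells, and the other read 7.14, 7.44 and 7.57 in siHBO1 cells, against 7.78, 7.86 and 7.80 in siCTRL cells. Neither FANCB probe showed overlap between the groups (log2 fold changes -0.47, SE 0.14, and -0.43, SE 0.13, adjusted p = 0.114 and 0.113). Without background correction the brighter FANCB probe was at -0.26. FANCL, the ligase subunit, was at -0.10, FANCC at 0.04, FANCG at 0.12 and FANCF, detected on 4 of 6 arrays, at 0.21. FANCC changed sign without siHBO1 replicate 1 or siCTRL replicate 2, and FANCL without siCTRL replicate 2. FANCI, the partner of FANCD2 that was measured, was at 0.12, and FANCM, the translocase that finds the lesion, was undetected on all arrays.

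Of the signalling members, ATM, the kinase activated by double-strand breaks, had the largest positive value. It read 9.30, 9.27 and 9.24 in siHBO1 cells, against 9.08, 9.01 and 8.82 in siCTRL cells. All siHBO1 arrays were above all siCTRL arrays (log2 fold change 0.30, SE 0.10, adjusted p = 0.149), and the second ATM probe was at 0.14 (adjusted p = 0.497). TP53BP1, which shields ends from resection and opposes recombination, read 9.86, 9.75 and 9.82 in siHBO1 cells, against 9.69, 9.72 and 9.38 in siCTRL cells. Its groups did not overlap, with siCTRL replicate 3 the lowest (log2 fold change 0.21, SE 0.12, adjusted p = 0.351). CHEK2, the effector kinase of ATM, read 9.08, 9.55 and 9.20 in siHBO1 cells, against 9.52, 9.52 and 9.43 in siCTRL cells. These overlapped (log2 fold change -0.21, SE 0.13, adjusted p = 0.417), and CHEK2 has partial pseudogene copies that its probes were not examined against. CHEK1, the effector kinase of ATR, was at -0.11, and ATR, the kinase of stalled forks, at -0.18 with detection on 1 of 3 siHBO1 and 3 of 3 siCTRL arrays (95% confidence interval -0.70 to 0.33).

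Other genes of the pathway are read against the shares over all tested named genes: 1.28% fell and 1.91% rose, 10.9% were lower and 12.9% higher unadjusted, and 48.2% were negative. Among 66 tested genes of a further list of recombination and crosslink repair factors, 1 fell and 0 rose. Before adjustment 6 were lower and 3 higher (p under 0.05), and the median log2 fold change was -0.04. The gene that fell was TIPIN, a fork protection factor that works with TIMELESS (log2 fold change -0.68, SE 0.09, adjusted p = 0.0239). The further lists held 0 calls when any array other than siHBO1 replicate 3 was left out. Of 12 tested end joining genes, which repair breaks without a template, 0 were called, 1 was lower and 1 higher unadjusted, and the median was -0.11. S-phase genes, transcribed in the same part of the cell cycle as many recombination genes, had 0 of 33 called, 4 lower and 0 higher unadjusted, 26 negative values and a median of -0.11, beside the members' -0.13. Whether the S-phase values bear on the members' values was not tested.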

How the data were processed

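RNA of 6 UWB1.289 samples was measured on Illumina bead arrays, and per the labels' protocols total RNA was column-purified and biotinylated cRNA amplified. The submitters' processing notes name GenomeStudio and lumi, without versions or roles. The deposited probe table holds mean bead intensity, neither normalised nor background-subtracted by its values, with a detection p-value per probe and array, per the file headers. A second deposited table, of the authors' processed values, was taken as log2 intensity. Its sorted columns match within 0.000539, so it was taken as quantile-normalised by the authors.

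Background correction and quantile normalisation used limma's neqc (limma 3.58.1, R 4.3.3) with an offset of 16, the negative controls being reconstructed by neqc through the detection p-values. Of 47316 probes, 21333 were tested, those with a detection p under 0.05 on 3 or more arrays. The difference, siHBO1 minus siCTRL, came from limma's lmFit and eBayes, with Benjamini-Hochberg adjustment over all tested probes and calls at an adjusted p under 0.05. Standard errors are limma's moderated ones. The fitting code was run on simulated data with independent noise for each probe and array, which does not test the calls made here. Depth has no counterpart on arrays, so the number of arrays limits the precision, and the offset compresses dim signals.

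Symbols (30109 probes with 1, 8 with several, 17199 with none listed) were updated through Entrez identifiers with the RefSeq table of GRCh38.p14. A gene was taken by its brightest tested probe. The alternatives were no background correction, median scaling, the authors' values, an offset of 50, no detection filter, a trended and robust prior, a stricter filter (every array at a detection p under 0.01), the replicate number as a block, leaving out each array, the mean of a gene's probes and an adjusted p threshold of 0.10. The members and lists were chosen with earlier results of these data known. Values on every array are given for KAT7, BRCA1, called members and the 12 members with the smallest unadjusted p; the dim XRCC2 and RAD51B probes were picked after their values were seen. Neither slide nor siRNA sequence is given in the sources used here. Whether the siRNA matches transcripts other than KAT7, MEIOB included, was not tested.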

Additional observations from a re-analysis of the deposited data

How the results depend on the processing

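MEIOB kept its direction under all 16 alternatives and its call under 12. Leaving out 1 array at a time gave log2 fold changes from -1.46 to -1.23 for MEIOB and from -2.04 to -1.69 for KAT7, with 4 of 6 ending the call of each. KAT7 was not tested under the stricter detection filter. The count of called members, 1, was 4 without background correction (MEIOB, XRCC3, FANCE and MRE11) and with a trended and robust prior. It was 3 with the stricter filter and at the 0.10 threshold. It was 2 with the authors' values, an offset of 50 and the mean of a gene's probes, and 0 to 1 with an array left out. The share of all tested named genes called, 3.19% in the main fit, rose under each setting that called more members. It was 10.7% without background correction, 11.0% with the trended and robust prior, 8.09% with the stricter filter and 9.03% at the 0.10 threshold. With the authors' values it was 5.58%, with the offset of 50 it was 5.83% and with the mean of probes 5.94%. The members' median was -0.20 with median scaling, -0.17 with the mean of probes and -0.19 to -0.080 with an array left out (-0.080 without siHBO1 replicate 1). The count over all tested probes, 582, was 1811 without background correction, 979 with the authors' values, 1020 with an offset of 50, 247 without the filter, 1136 with the stricter filter, 1886 with the trended and robust prior, 1665 at the 0.10 threshold and 1 to 271 with an array left out. Median scaling gave 235 higher and 379 lower, in place of 314 higher and 268 lower. The mean of probes gave no such count. Calls in the 4 further lists, 1, numbered 6, 2, 2, 7, 3 and 3 without background correction, with the authors' values, an offset of 50, the trended and robust prior, the mean of probes and the 0.10 threshold, and 0 to 1 with an array left out. These lists held 66, 12, 16 and 33 tested genes in the main fit. Their calls are read against the share of all named genes called under the same setting, given above except for the fits with an array left out. The cause of the shifts in these counts was not tested. With the replicate number as a block, MEIOB stayed called (adjusted p = 0.0443), and 1 member and 2 further list genes were called. Under that block 282 probes and 1.65% of all tested named genes passed. Same-numbered arrays correlated in their deviations at 0.26, -0.02 and 0.22, and differently numbered ones at -0.28 to 0.09. The values for replicates 1 and 3 thus exceeded every differently numbered one. Whether the numbers pair the samples is not given in the labels, and the main fit did not pair them. Dim probes limit what can be read: 14 of 16 untested member probes were detected on 0 arrays.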
